A study of Mus musculus with 6 samples.

Results

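Genes that supply peptides to major histocompatibility complex (MHC) class I molecules were followed across a mouse thymocyte array series, 8 in all: B2m, Tap1, Tap2, Tapbp, Nlrc5, Psmb8, Psmb9 and Psmb10. They were chosen by gene symbol, and all 8 were among the 19937 genes measured. Class I molecules display peptides made by the proteasome in the cytosol. The immunoproteasome is a form of that protease in which inducible catalytic subunits replace the constitutive ones, the Tap transporter carries its peptides into the endoplasmic reticulum, and tapasin helps to load them. Most of these genes are induced by interferons, and thymocytes express class I molecules at changing levels as they mature.

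The 6 arrays held RNA of Thy1.2+ cells from fetal thymi of Rag1-/- mouse embryos at E17.5. All groups share the Rag1 deletion, under which T cell receptor genes are not rearranged and thymocytes stop at an early stage. There were 3 groups of 2 arrays. Control-0h cells were purified from fresh, unstimulated thymi (fresh), Control-DMSO-40h cells after 40 h with anti-CD3 antibody and the vehicle DMSO (DMSO), and 79-6-40h cells after 40 h with anti-CD3 and 50 µM 79-6 (79-6). 79-6 is a small molecule that blocks the BTB domain of the repressor Bcl6, and anti-CD3 stands in for the missing pre-T cell receptor signal. Stimulation took place in fetal thymic organ culture, per the series design. Whether thymi were pooled, and whether replicates were separate cultures or litters, is not given in the sources used here, so p-values measure the spread between these arrays, which may be technical.

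Values are RMA intensities, a background-corrected and quantile-normalised summary of the probes in a probe set, of which a gene can have several. They are given on the linear scale for single arrays and as log2 for means and changes. Array medians ran from 99.3 to 103.6, and replicate arrays correlated at 0.997 to 0.998 across genes. The purification antigen was bright, with Thy1 between 7045 and 9810 on the 6 arrays, and 12 T-lineage genes summed to between 47876 and 55558. Within that sum 6 of the 12 were called higher and 4 lower from fresh to DMSO, from Ptcra, the pre-T cell receptor alpha chain gene, which fell by 1.86 on the log2 scale, to the adhesion gene Cd2, which rose by 3.35. Markers of other cells in the thymus also gave signal. The summed intensity of 17 thymic epithelial markers was 15372 and 15753 in the fresh arrays, 5207 and 7384 in the DMSO arrays and 6712 and 6529 in the 79-6 arrays, with 15 of 17 called lower from fresh to DMSO. That of 20 macrophage and dendritic cell markers was 9592 and 13665, then 23635 and 24606, then 29155 and 32562, with 6 of 20 called higher from fresh to DMSO and 2 from DMSO to 79-6. The lysozyme gene Lyz2 carried much of this rise, and without it the sums were 9146 and 12914, then 15038 and 16166, then 19801 and 21510. For 12 mesenchymal and endothelial markers it was 5219 and 5644, then 3987 and 4576, then 4538 and 4581, with 4 called lower and 1 higher from fresh to DMSO. Over all genes 10.7% were called lower and 8.89% higher from fresh to DMSO, and 2.38% higher from DMSO to 79-6. RMA intensities are never 0, so no defining marker can be called absent. The part these cells had in the results that follow was not tested, and in bulk RNA fewer cells of a type and less RNA per cell cannot be told apart.

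Psmb9, Tap1, Psmb8 and Tap2 are neighbours in that order on chromosome 17, inside the MHC, and Psmb9 and Tap1 are read outward from starts that lie 225 bases apart. The bases between those 2 starts are shown because both genes share them as upstream sequence. The 250 bases before the starts of B2m and Psmb8 are shown for the motifs they hold, and those of Tapbp and Psmb10 because these genes changed most. All come from RefSeq on GRCm38.p6 and read 5′ to 3′ on the strand named, with capitals marking a motif match.
Psmb9 to Tap1 (chr17:34187331-34187555, plus strand): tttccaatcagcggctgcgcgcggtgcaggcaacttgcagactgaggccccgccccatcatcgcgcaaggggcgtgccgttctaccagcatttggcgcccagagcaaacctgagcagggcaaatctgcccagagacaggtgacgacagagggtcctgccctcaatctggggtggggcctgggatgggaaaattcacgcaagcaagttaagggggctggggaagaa
B2m (chr2:122147437-122147686, plus strand): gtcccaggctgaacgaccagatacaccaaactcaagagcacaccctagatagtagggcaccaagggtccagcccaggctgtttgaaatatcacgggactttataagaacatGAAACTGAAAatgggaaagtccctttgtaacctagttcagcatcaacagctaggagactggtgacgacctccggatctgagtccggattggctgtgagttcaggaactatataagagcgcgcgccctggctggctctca
Psmb8 (chr17:34197945-34198194, plus strand): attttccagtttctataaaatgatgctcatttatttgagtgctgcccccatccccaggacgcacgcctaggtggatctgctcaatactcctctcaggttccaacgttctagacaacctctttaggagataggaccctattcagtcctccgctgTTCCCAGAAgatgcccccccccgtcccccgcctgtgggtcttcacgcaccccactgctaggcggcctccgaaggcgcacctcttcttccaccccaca
Tapbp (chr17:33919228-33919477, plus strand): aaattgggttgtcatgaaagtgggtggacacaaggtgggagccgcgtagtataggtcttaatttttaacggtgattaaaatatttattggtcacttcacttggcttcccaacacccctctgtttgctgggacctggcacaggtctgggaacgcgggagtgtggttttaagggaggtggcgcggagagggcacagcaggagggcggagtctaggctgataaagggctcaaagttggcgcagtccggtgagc
Psmb10 (chr8:105938393-105938642, minus strand): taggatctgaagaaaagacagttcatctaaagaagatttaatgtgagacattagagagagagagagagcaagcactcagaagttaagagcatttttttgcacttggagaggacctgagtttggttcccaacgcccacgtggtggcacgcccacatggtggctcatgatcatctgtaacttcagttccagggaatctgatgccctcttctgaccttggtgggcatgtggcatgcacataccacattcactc
RefSeq promoter entries were matched for 6 of the 8 genes, and Tap2 and Nlrc5 were the others. Motifs searched on both strands were the interferon-stimulated response element (ISRE, GAAA followed by any 2 bases and GAAA), the STAT-binding element GAS (TTCNNNGAA) and the cyclic AMP response element (CRE, TGACGTCA). An ISRE match stood 139 bases before the B2m start (GAAACTGAAA) and a GAS match 97 bases before the Psmb8 start (TTCCCAGAA). Neither overlapped another motif, and no match lay in the windows of the other 4 genes. Over all 32851 mouse promoter entries of the same length, 2.98% held the ISRE letters, 7.02% the GAS letters and 1.55% the CRE letters. A match is a description of the letters in this window and says nothing of binding.

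From fresh cells to DMSO, 4 of the 8 genes fell and none rose. Tapbp and Psmb10 fell furthest, 1.74-fold and 1.78-fold, and Nlrc5 and Tap1 fell 1.35-fold and 1.23-fold, while B2m, Tap2, Psmb8 and Psmb9 did not pass the test. A gene was called when limma, fitted over all 6 arrays and all genes, gave a Benjamini-Hochberg adjusted p under 0.05. The effects of time in culture, the antibody and the vehicle cannot be told apart here. Over all 19937 genes 19.6% were called, 10.7% lower and 8.89% higher, and with each array shifted to 1 median 2268 genes were higher and 1765 lower in place of 1773 and 2129. The median change was -0.29 over the 8 genes and 0.02 over all genes on the log2 scale. With 79-6 in place of DMSO, 2 of the 8 were higher, Tapbp and Psmb10, and none was lower, against 4.36% called over all genes, 2.38% higher and 1.98% lower (465 higher and 622 lower with arrays at 1 median, in place of 475 and 394). The median change was then 0.09 over the 8 genes and 0.02 over all genes. Calls between 79-6 and DMSO were less secure than the others. No named gene called there was kept in all 6 fits that each dropped an array, against most of those called from fresh to DMSO or to 79-6. Such fits leave 1 array in a group, whose spread is assumed to be that of the others. The changes themselves moved less, and Psmb10 stayed 0.37 to 0.53 above DMSO in these fits. Dropping a fresh array left Psmb10 at 0.45 and Tapbp at 0.39, and changed only the estimated spread and its degrees of freedom.

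**Figure D1:**
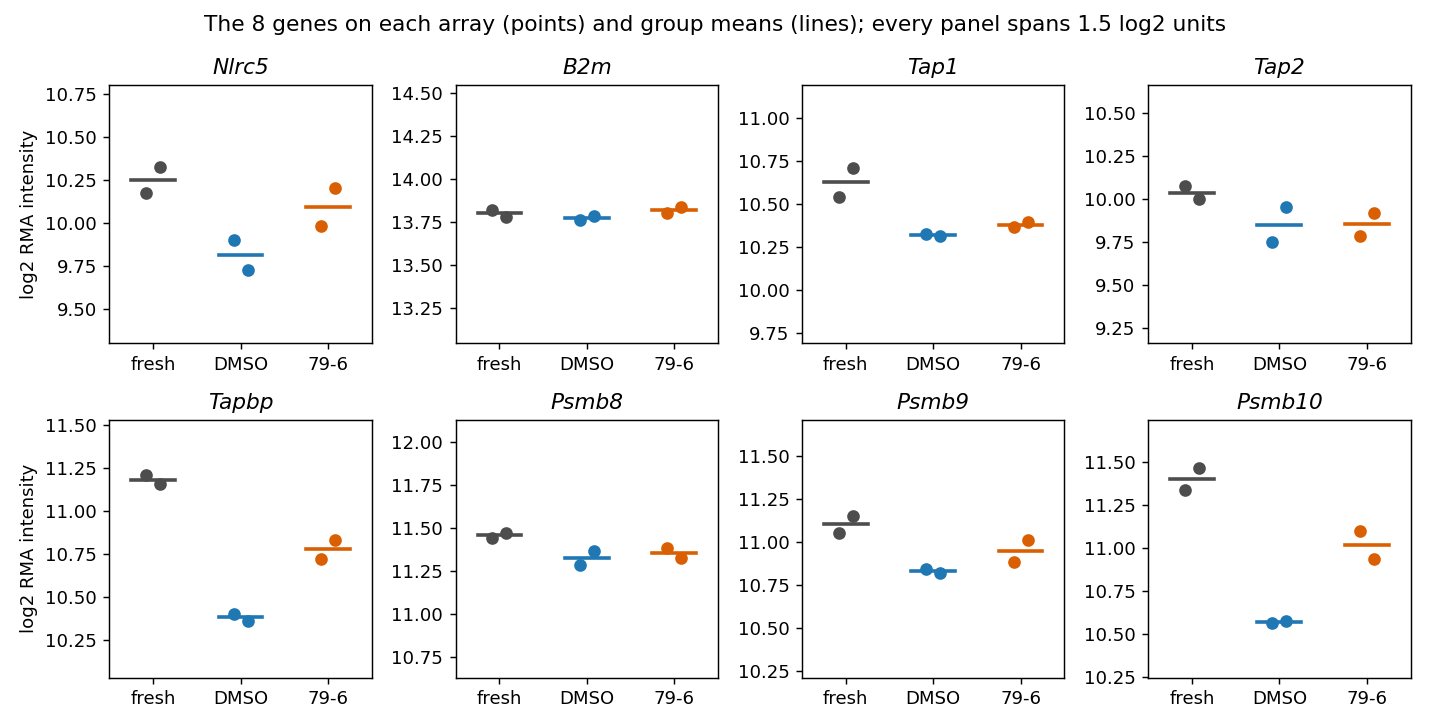
Log2 RMA intensity (vertical axis, spanning 1.5 log2 units in every panel) of each of the 8 genes in the 3 groups (horizontal axis). Points are the 2 arrays of a group and lines their mean. In Tapbp and Psmb10 the DMSO arrays lie lowest, the fresh arrays highest and the 79-6 arrays between them, whereas the B2m arrays lie between 13.76 and 13.84.

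Nlrc5 encodes the class I transactivator, a regulator that assembles on promoters of class I and related genes. Its brightest probe set read 1152 and 1279 in the fresh arrays, 956 and 848 in the DMSO arrays and 1009.7 and 1179.6 in the 79-6 arrays. Both DMSO arrays were below both arrays of the other groups, and the 79-6 and fresh arrays overlapped. The fall from fresh to DMSO was 0.43 ± 0.11 on the log2 scale (SE, limma adjusted p = 0.0296). This call was lost without fresh replicate 1 (adjusted p = 0.0599), fresh replicate 2 (0.163), DMSO replicate 1 (0.0566) or DMSO replicate 2 (0.158). The 79-6 arrays were 0.28 ± 0.11 above DMSO (adjusted p = 0.206) and -0.15 ± 0.11 from fresh (adjusted p = 0.342), and neither passed by limma.

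The array carries 19 probe sets for Nlrc5, and the brightest gave nearly the smallest change. All 19 were lower in both DMSO arrays than in both fresh arrays, with log2 changes from -1.27 to -0.41 and a median of -0.78. Of all genes, at 1 probe set each, 28.1% were lower without overlap. In a limma fit over the 21640 probe sets with 1 symbol, which called 18.9% of them in either direction, 18 of the 19 were called lower. Their mean fell by 0.78 (adjusted p = 0.00152 by limma), further than the brightest probe set. All 19 were also higher with 79-6 than with DMSO by point value (0.12 to 0.46, median 0.29), 15 of them without overlap of the arrays. Of all genes 26.8% were higher without overlap. Of the 19, 1 was called higher, probe set 10574098, where the fit called 3.64% of probe sets in either direction. Those arrays read 1538 and 1616 fresh, 682 and 622 in DMSO and 839 and 962 with 79-6. Against fresh cells 12 of the 19 were called lower with 79-6, where the fit called 24.9% of probe sets in either direction. The mean of the 19 was then -0.49 (adjusted p = 0.00893 by limma). The probe sets share 1 gene symbol and the same arrays, so they are not replicates of a condition.

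**Figure D2:**
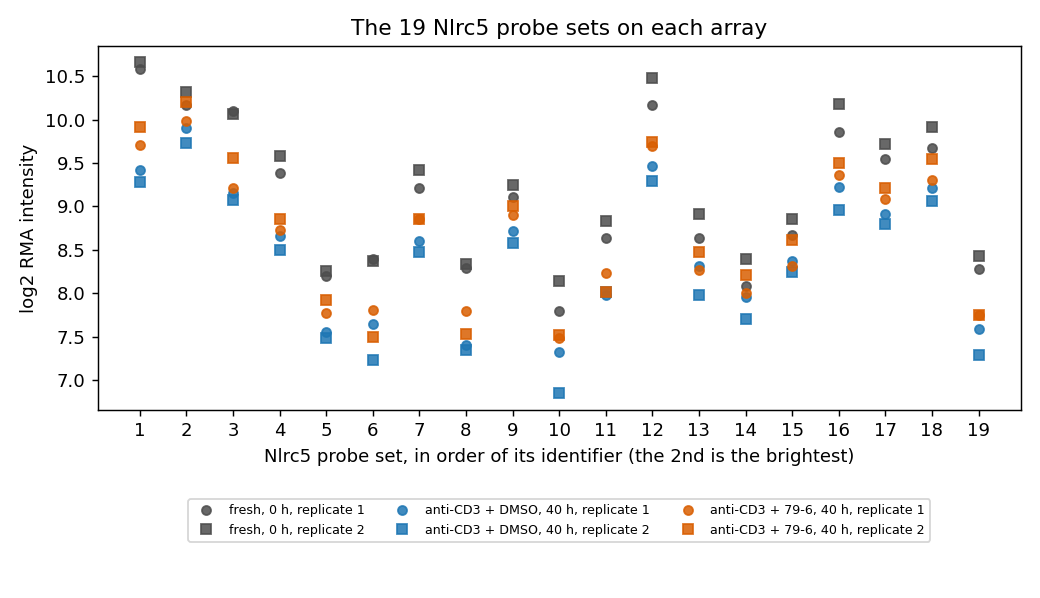
Log2 RMA intensity (vertical axis) of the 19 Nlrc5 probe sets (horizontal axis, in order of identifier) on each of the 6 arrays (colour for group, shape for replicate). At each probe set both fresh arrays lie above both DMSO arrays; the probe set used at gene level is the 2nd, with a DMSO against fresh change of -0.43.

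B2m encodes beta-2-microglobulin, the light chain that every class I heavy chain needs to reach the surface. It read 14508 and 14068.5 in fresh arrays, 13887 and 14164 in DMSO arrays and 14297 and 14648 with 79-6. The fresh and DMSO arrays overlapped, and the 79-6 arrays lay above the DMSO arrays by less than the test could separate. Its log2 changes were -0.03 from fresh to DMSO (95% interval -0.19 to 0.13, limma adjusted p = 0.851) and 0.05 from DMSO to 79-6 (-0.12 to 0.21, adjusted p = 0.758).

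Tap1 and Tap2 encode the chains of the peptide transporter. Tap1 read 1488 and 1670.5 in fresh arrays, 1281 and 1273 in DMSO arrays and 1315 and 1346 with 79-6. Fresh arrays were highest, and the 79-6 arrays lay just above the DMSO arrays. Tap1 fell by 0.30 ± 0.08 from fresh to DMSO (SE, limma adjusted p = 0.0368). The call was lost without fresh replicate 2 (adjusted p = 0.228), DMSO replicate 1 (0.135) or DMSO replicate 2 (0.138), and with arrays shifted to 1 median (0.0604). The difference of 79-6 from DMSO was 0.06 ± 0.08 (adjusted p = 0.727) and that from fresh -0.24 ± 0.08 (adjusted p = 0.0629 by limma). Tap2 read 1079 and 1026 in fresh, 863 and 992 in DMSO and 885 and 969 in 79-6 arrays. Its fresh arrays were above all others, but the spread between the DMSO arrays was wide, and the change of -0.19 (95% interval -0.41 to 0.03) did not pass limma's test (adjusted p = 0.236). The Tap2 change from DMSO to 79-6 was 0.00 (-0.22 to 0.22).

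Tapbp encodes tapasin, the chaperone that tethers empty class I molecules to the transporter. It read 2366.5 and 2278 in fresh arrays, 1352 and 1315 in DMSO arrays and 1685.5 and 1822 with 79-6. The groups did not overlap, with DMSO lowest and fresh highest. Group means on the log2 scale were 11.18 ± 0.04, 10.38 ± 0.03 and 10.78 ± 0.08 (SD, n = 2 each, in the order fresh, DMSO, 79-6). Tapbp fell by 0.80 ± 0.07 from fresh to DMSO (SE, limma adjusted p = 0.000453), a call kept whichever of the 6 arrays was dropped. It was 0.39 ± 0.07 higher with 79-6 than with DMSO, 1.31-fold (limma adjusted p = 0.0364). That call was kept without 79-6 replicate 1 (adjusted p = 0.0494) and lost without either fresh array (0.0632), DMSO replicate 1 (0.137), DMSO replicate 2 (0.179) or 79-6 replicate 2 (0.161). Against fresh cells it remained 0.41 lower with 79-6 (95% interval of the change -0.58 to -0.23, limma adjusted p = 0.00698; 0.0542 without fresh replicate 1). Other probe sets that carry Tapbp together with the ribosomal gene Rps3a1 were not used.

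Of the catalytic subunits of the immunoproteasome, Psmb10 alone was called. It read 2587 and 2826 in fresh arrays, 1514 and 1528 in DMSO arrays and 2190.3 and 1962 with 79-6. The groups did not overlap, and the order was that of Tapbp. Log2 means were 11.40 ± 0.09 (fresh), 10.57 ± 0.01 (DMSO) and 11.02 ± 0.11 (79-6; SD, n = 2 each). Psmb10 fell by 0.83 ± 0.09 from fresh to DMSO (SE, limma adjusted p = 0.000681), also kept whichever array was dropped. With 79-6 it was 0.45 ± 0.09 above DMSO, 1.36-fold (limma adjusted p = 0.0371). This call was lost whichever array was dropped: without either fresh array (adjusted p = 0.0526), DMSO replicate 1 (0.160) or 2 (0.169), and 79-6 replicate 1 (0.0842) or 2 (0.0847). Psmb10 was 0.38 lower with 79-6 than in fresh cells (95% interval of the change -0.58 to -0.18, limma adjusted p = 0.0154; 0.101 without fresh replicate 2 and 0.0728 without 79-6 replicate 2).

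Psmb8 read 2780.4 and 2837 in fresh, 2489 and 2638 in DMSO and 2669.6 and 2568 in 79-6 arrays. Its fresh arrays were above the rest and the other groups overlapped. Its change from fresh to DMSO was -0.13 (95% interval -0.30 to 0.04, limma adjusted p = 0.274), and from DMSO to 79-6 0.03 (-0.14 to 0.20, adjusted p = 0.848). Psmb9 read 2125 and 2277 in fresh, 1839 and 1806 in DMSO and 1889 and 2062 in 79-6 arrays. The groups did not overlap, with DMSO lowest and fresh highest. Its change from fresh to DMSO was -0.27 ± 0.08 (SE), just short of the threshold by limma (adjusted p = 0.0527). It passed in 7 of 14 other settings, among them with values quantile-normalised again (0.0351). Of these settings, the fits without either 79-6 array and the fit of only the 4 arrays compared are the same fit. From DMSO to 79-6 the Psmb9 change was 0.12 ± 0.08 (limma adjusted p = 0.470). Psmb9 and Tap1, whose starts share the 225 bases above, thus had point changes of -0.27 and -0.30 with intervals of -0.46 to -0.09 and -0.49 to -0.12, on opposite sides of the threshold.

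Of the 8 genes, Tap1, Tapbp, Psmb9 and Psmb10 had every DMSO array below every 79-6 array and every 79-6 array below every fresh array. The same strict order held for 738 of all 19937 genes, 3.7%. Across the 8, both DMSO arrays were below both fresh arrays in 7, where 28.1% of all genes showed this, and both 79-6 arrays were above both DMSO arrays in 6, where 26.8% did. The opposite orders held for 0 of the 8, against 31.9% and 22.2% of all genes. Against fresh cells, Tapbp and Psmb10 were called lower with 79-6 and none higher, where 26% of all genes were called, 13.9% lower and 12% higher. Both 79-6 arrays were below both fresh arrays in 6 of the 8 (27.7% of all genes) and above them in 0 (36.8%).

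**Figure D3:**
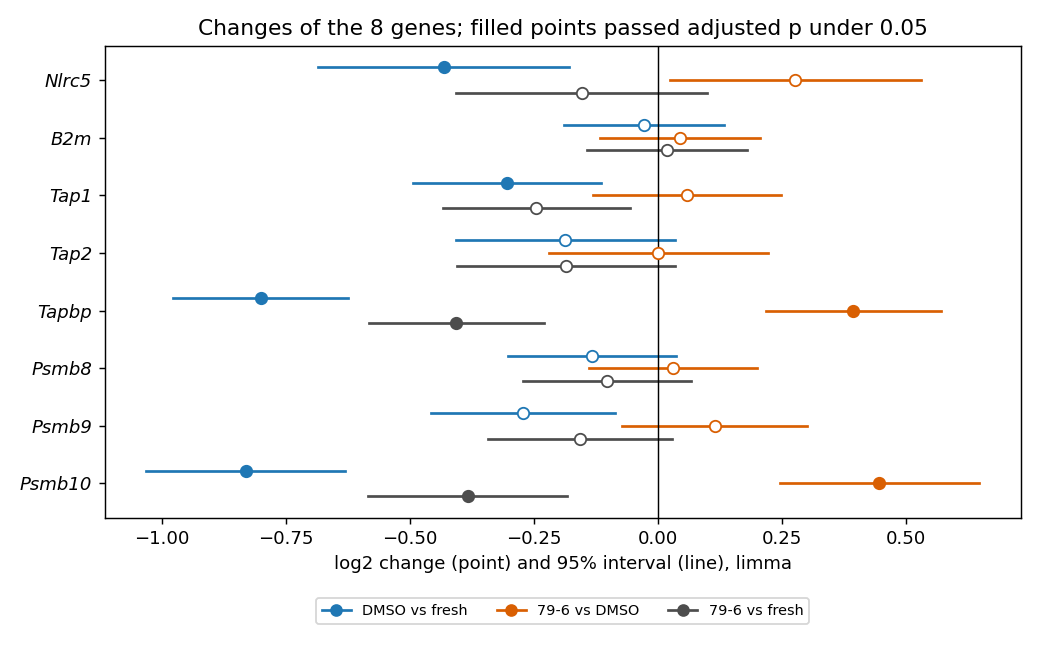
Log2 change (points, horizontal axis) with its 95% interval from limma (lines) for the 8 genes (vertical axis) in 3 comparisons that share arrays (colours). Filled points passed an adjusted p of 0.05: Tap1, Tapbp, Nlrc5 and Psmb10 for DMSO against fresh, and Tapbp and Psmb10 for both comparisons of 79-6.

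Each inducible subunit replaces a constitutive counterpart in the proteasome, Psmb8 that of Psmb5, Psmb9 that of Psmb6 and Psmb10 that of Psmb7. None of the counterparts passed in any comparison. From fresh to DMSO their log2 changes were 0.05 for Psmb5 (95% interval -0.12 to 0.23), 0.07 for Psmb6 (-0.10 to 0.23) and 0.00 for Psmb7 (-0.19 to 0.19). From DMSO to 79-6 they were 0.04, 0.06 and -0.04. Within an array, Psmb10 relative to Psmb7 differed by -0.84 on the log2 scale between DMSO and fresh arrays and by 0.49 between 79-6 and DMSO arrays. The single arrays were -0.83 and -0.84 (DMSO) and -0.35 and -0.35 (79-6) from the fresh mean, without overlap. Psmb9 relative to Psmb6 was -0.34 and Psmb8 relative to Psmb5 -0.19 from fresh to DMSO, also without overlap, and with 79-6 both overlapped the DMSO arrays. Exact two-sided permutation tests gave p = 0.333 where arrays did not overlap, the smallest that 2 against 2 arrays allow, so none could pass. These ratios show unequal change of a pair, not which subunit was more abundant.

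**Figure D4:**
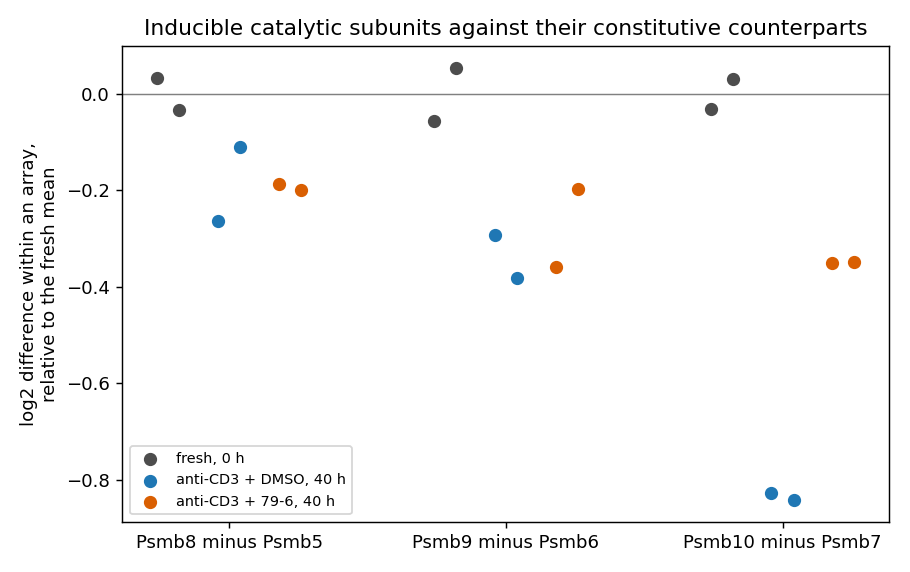
Log2 difference between an inducible subunit and its constitutive counterpart within each array (vertical axis, relative to the mean of the fresh arrays), for 3 pairs (horizontal axis) and 3 groups (colours; each point is 1 array). For Psmb10 minus Psmb7 the DMSO arrays lie at -0.83 and -0.84 and both 79-6 arrays at -0.35.

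Of all 14 constitutive core subunits, none was called from fresh to DMSO (median 0.05, range -0.17 to 0.26) or from DMSO to 79-6 (median 0.01), and Psma2 alone was called with 79-6 against fresh (0.23, limma adjusted p = 0.0469, lost whichever array was dropped). Psmb11, the catalytic subunit of cortical thymic epithelium, read 235 and 223 in fresh arrays, 111 and 102 in DMSO arrays and 127 and 102 with 79-6. It fell by 1.10 ± 0.11 from fresh to DMSO (SE, limma adjusted p = 0.000667), beside the fall of the epithelial markers, of which 15 of 17, Psmb11 included, were called lower and none higher.

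Among 9 activators and assembly factors of the proteasome, 3 fell and 1 rose from fresh to DMSO. Over all genes 10.7% were called lower and 8.89% higher. Psme1 and Psme2 form the interferon-inducible cap that opens the core. Psme1 read 3995 and 3409 in fresh, 2388 and 2486 in DMSO and 2465 and 2790.1 in 79-6 arrays. It fell by 0.60 ± 0.10 (SE, limma adjusted p = 0.00645), and with 79-6 it was 0.11 ± 0.10 from DMSO (adjusted p = 0.614). Psme2 read 3594 and 3470.4 in fresh, 2433 and 2359 in DMSO and 3203 and 3578 in 79-6 arrays. It fell by 0.56 ± 0.08 (limma adjusted p = 0.00300) and was 0.50 ± 0.08 higher with 79-6 than with DMSO (adjusted p = 0.0225), a call lost without either DMSO array or 79-6 replicate 2, and the 79-6 and fresh arrays overlapped. Both falls were kept whichever array was dropped. The assembly chaperone gene Psmg4 fell by 0.30 and Psme4, an alternative cap, rose by 0.27, and each call was lost without any of the 4 arrays compared. From DMSO to 79-6 1 of the 9 was higher, Psme2, and 1 lower, the chaperone gene Psmg2. Over all genes 2.38% were higher and 1.98% lower. Psmg2 fell by 0.37 (limma adjusted p = 0.0497, lost whichever array was dropped).

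Of 8 peptide loading and trimming partners, 2 were called lower and 1 higher from fresh to DMSO, where 10.7% and 8.89% of all genes were. Tapbpl, a tapasin relative that edits the peptides bound, read 623 and 609.8 in fresh, 506.5 and 501 in DMSO and 721 and 734 in 79-6 arrays. It was lower in DMSO (-0.29 ± 0.07, limma adjusted p = 0.0224, not called with arrays at 1 median) and 0.53 ± 0.07 higher with 79-6 than with DMSO (adjusted p = 0.0112), the only called gene of this list in the latter comparison, a call lost without either DMSO array or 79-6 replicate 2. The trimming protease Erap1 fell by 0.43 (adjusted p = 0.0174) and the cytosolic peptidase gene Npepps rose by 0.38 (adjusted p = 0.0105). The general chaperones Calr, Canx and Pdia3 were not called, with changes of -0.07, -0.01 and 0.17. The DMSO calls of Tapbpl and Npepps were lost without any of the 4 arrays compared, and that of Erap1 without either fresh array or DMSO replicate 2.

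Heavy chains could be followed in part. Of 18 class I and class I-like genes, 9 had a probe set with 1 symbol, and H2-K1 and H2-D1 were not among them. Near-identical family members can share probes, so these values are uncertain as to gene. From fresh to DMSO 2 of the 9 were called higher and 1 lower, where 8.89% and 10.7% of all genes were. H2-T24 read 515 and 528 in fresh, 354 and 343 in DMSO and 451 and 456 in 79-6 arrays. It fell by 0.58 ± 0.07 (SE, limma adjusted p = 0.00121) and was 0.38 ± 0.07 higher with 79-6 than with DMSO (adjusted p = 0.0308). Mr1, which presents vitamin B metabolites, went the other way, rising by 1.09 ± 0.10 (adjusted p = 0.000336) from 858 and 798 to 1624 and 1908.5, and its change from DMSO to 79-6 was -0.51 (adjusted p = 0.0345). The 79-6 against DMSO calls of H2-T24 and Mr1 were lost whichever array was dropped. H2-Q2 rose by 0.67 (adjusted p = 0.00751; 0.0536 without DMSO replicate 1).

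Regulators that act on class I promoters were measured for 17 of 19 genes. From fresh to DMSO 5 were called lower and 2 higher, where 10.7% and 8.89% of all genes were. The interferon response factors Irf7 and Irf9 and the NF-kappaB subunit gene Nfkb2 fell furthest. Irf7 read 2421 and 2898 in fresh, 1056 and 1081 in DMSO and 1541.5 and 1686 in 79-6 arrays. It fell by 1.31 ± 0.10 (SE, limma adjusted p = 0.000199), was 0.59 ± 0.10 higher with 79-6 than with DMSO (adjusted p = 0.0266) and alone in this list passed in the latter comparison, a call lost without either DMSO array or 79-6 replicate 2. Irf9 fell by 1.25 and Nfkb2 fell by 1.58, and with 79-6 they were 0.23 and 0.25 from DMSO without passing. Irf1, a direct activator of Psmb9 and Tap1 in other cells, read 1870.2 and 2087 in fresh, 1666 and 1626 in DMSO and 1960.1 and 2078 in 79-6 arrays. Its change of -0.26 ± 0.08 to DMSO (adjusted p = 0.0656) and of 0.29 ± 0.08 to 79-6 (adjusted p = 0.0980) did not pass limma's test, although the DMSO arrays were below all others. Stat2 (-0.33) and Nfya (-0.27) fell and Creb1 (0.63) and Nfyb (0.41) rose, and of these Creb1 alone was kept without each of the 4 arrays compared.

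Among 15 interferons, receptors and signalling genes, 6 were called higher and 3 lower from fresh to DMSO, where 8.89% and 10.7% of all genes were. Ifng, the gamma interferon gene, read 205 and 229.8 in fresh, 97.2 and 102 in DMSO and 102 and 116 in 79-6 arrays, near the median of the array after culture. It fell by 1.13 ± 0.09 (SE, limma adjusted p = 0.000272) and was 0.13 ± 0.09 from DMSO with 79-6 (adjusted p = 0.487). The other ligands measured, Ifnb1 and Ifna4, were not called (0.02 and -0.09), nor was the receptor gene Ifnlr1 (0.05). Over the 6 arrays Ifnb1 read 30.1 to 32.9, Ifna4 39.5 to 45.3 and Ifnlr1 60.0 to 66.4. All lay below the array medians, where a change can be missed. The gamma interferon receptor chains Ifngr1 and Ifngr2 rose by 0.69 and 0.92, and Il10rb by 0.69. The type I receptor chains Ifnar1 and Ifnar2 rose by 0.44 and 0.45 (limma adjusted p = 0.00465 and 0.00481). Usp18, an interferon-induced brake on the type I receptor, fell (limma adjusted p = 0.000188). Socs3 was 0.71 ± 0.08 higher with 79-6 than with DMSO (adjusted p = 0.00768) and Il10rb 0.60 ± 0.09 higher (adjusted p = 0.0173), and both calls were lost without DMSO replicate 1 or 79-6 replicate 2, that of Il10rb also without DMSO replicate 2.

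Interferon-stimulated genes outside class I processing fell together from fresh to DMSO. All 25 measured of 30 listed were called lower from fresh to DMSO, where 10.7% of all genes were. Their median was -1.49 and their range -2.08 to -0.55. Mx2 (-2.08), Iigp1 (4.01-fold lower) and Oasl2 (-1.97) fell furthest, with Oas2 next (-1.97). From DMSO to 79-6 12 of the 25 were called higher and none lower (median 0.43), where 2.38% and 1.98% of all genes were. The largest calls were those of Ifit3 (0.80), Cxcl10 (0.79) and Rsad2 (0.73). Those of Ifit3 and Cxcl10 were lost without any of the 4 arrays compared and that of Rsad2 without either DMSO array or 79-6 replicate 2. This fall was among the results known when the list was chosen and is no independent support. Against fresh cells 24 of 25 were called lower with 79-6, where 13.9% of all genes were. Class II presentation genes, which mark antigen-presenting cells, did not fall. From fresh to DMSO 3 of 9 were called higher, among them H2-Ob (1.68), where 8.89% of all genes were. From DMSO to 79-6 2 were, H2-Aa (0.72) and the class II transactivator Ciita (0.59), relative of Nlrc5, where 2.38% of all genes were. The summed intensity of the 9 was 6669 and 7715 in fresh, 7746 and 10287 in DMSO and 12688 and 13213 in 79-6 arrays. The macrophage and dendritic markers Itgax (1.14) and C1qa (0.98) were also higher with 79-6 than with DMSO, 2 of 20 called, against 2.38% of all genes.

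**Figure D5:**
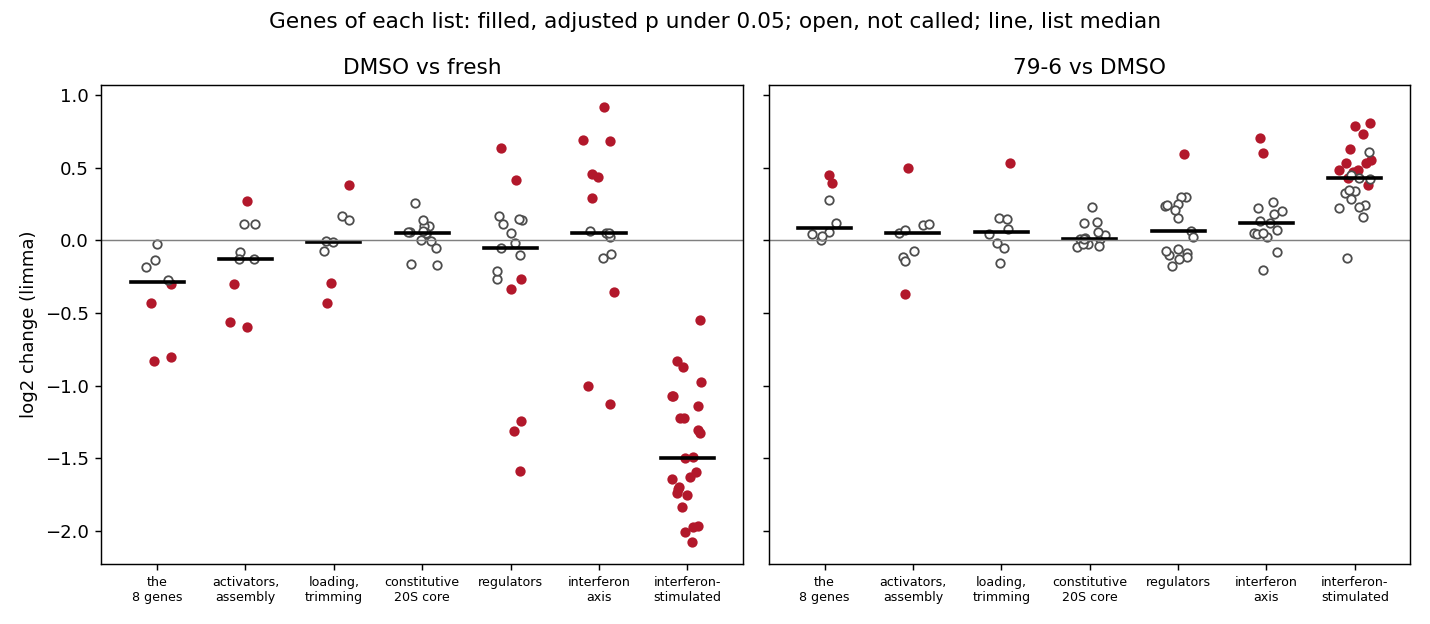
Log2 change from limma (vertical axis) of each measured gene in 7 lists (horizontal axis), for DMSO against fresh (left) and 79-6 against DMSO (right). Filled points passed an adjusted p of 0.05, open points did not, and lines are list medians, -0.29 for the 8 genes, 0.05 for the constitutive core and -1.49 for interferon-stimulated genes on the left.

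The genes most like the mean of the 8 in pattern over the 6 arrays, out of 5310 other genes with a range of at least 0.5 log2 units, were Irf7 (Pearson r 0.998), Zbp1 (0.997), Gbp5 (0.997), Cmpk2 (0.996), Dpp4 (0.995) and Trim30a (0.993). These correlations describe 6 points in 3 groups, and the genes were picked on these same arrays, so their levels and calls restate that choice. Gbp5, a guanylate-binding protein gene, read 311 and 322 in fresh, 135 and 135 in DMSO and 188 and 204 in 79-6 arrays. Dpp4, a surface peptidase gene of lymphocytes, read 4297 and 4311, then 2847 and 2853, then 3344 and 3503.5. Each of the 6 genes was called lower from fresh to DMSO, and all but Dpp4 (0.26, limma adjusted p = 0.0812) were called higher with 79-6 than with DMSO. Among the 8 genes themselves the correlation with their own mean, which contains each of them, ran from 0.387 for B2m and 0.707 for Tap2 to 0.988 for Tapbp.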

How the data were processed

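Expression was measured on 6 one-colour Affymetrix whole-transcript arrays. The deposited values are RMA intensities on the linear scale (8.75 to 25316), made with the R package oligo per the submitters' processing notes. The sources used here name no version or genome build. The planned tests needed log2 values, so log2 was taken. Of 34760 probe sets, 21640 had 1 gene symbol, 1321 several and 11799 none in the platform annotation. Entrez identifiers of 21553 matched RefSeq genes and changed 0 symbols. The brightest probe set over the 6 arrays stood for each of 19937 genes.

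A linear model held all 6 arrays, with a mean for each group and no block, in limma 3.58.1 under R 4.3.3 (lmFit, eBayes). It had 3 residual degrees of freedom and 4.24 from the prior. Two-sided p-values were adjusted by Benjamini-Hochberg over all genes and called under 0.05. The fit was tested on simulated data. Arrays give no counts, so their number limits the precision. The 8 genes and all lists were chosen with earlier results of these data known. Genes named beside the 8 came from the called list members with the largest changes (up to 3 per direction and list, of which not all are printed), interferon regulators, constitutive counterparts and the 6 genes most alike in pattern. Other named genes, Oas2 among them, were chosen after their values were seen. Alternatives were a replicate block, leaving out each array, other scalings, an offset of 16 before log2, a filter at the 25th percentile, the mean of all probe sets, a trended robust prior and fits of 4 arrays.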

Additional observations from a re-analysis of the deposited data

How the results depend on the processing

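In the 336 refits of single changes of the 8 genes, 299 kept their side of the threshold, 26 lost a call and 11 gained one. For 68 other named genes, Ifnar1 and Ifnar2 not among them, 2630 of 2850 did, with 176 calls lost and 44 gained. Direction was compared only where at least 1 of the 2 fits called the gene, and there 0 reversed. A small change that neither fit called may have changed sign and still counts as kept. For each comparison, leaving out either array of the third group gives the same fit as the 4 arrays compared, so these settings repeat 1 result. Ifna4 and Ifnb1 have no value under the filter at the 25th percentile. Arrays that share a replicate number did not clearly deviate together (correlations of 0.0036, 0.0948 and -0.0740), and nothing in the labels pairs them. With a replicate block 0 of the 8 genes were called higher with 79-6 than with DMSO, in place of 2 (Tapbp adjusted p = 0.0550 and Psmb10 0.0529), and the count was also 0 with only the 4 arrays compared. With 79-6 against fresh, 3 of the 8 were lower in place of 2 with an offset of 16, a filter at the 25th percentile, the mean of all probe sets or a trended robust prior. Leaving out 1 array gave 2 to 5 genes of the 8 lower from fresh to DMSO, 0 to 1 higher from DMSO to 79-6 and 1 to 2 lower with 79-6 against fresh. Over all genes it gave 1204 to 2184 lower and 921 to 1886 higher from fresh to DMSO, 18 to 323 lower and 70 to 406 higher from DMSO to 79-6, and 1732 to 2552 lower and 1349 to 2542 higher with 79-6 against fresh. The count lower from DMSO to 79-6, 394, was 622 with arrays at 1 median, 633 with the offset, 912 with the trended robust prior and 225 with 4 arrays, and the count higher, 475, was 811 with that prior. Where fewer arrays were fitted, fewer degrees of freedom remained; the cause of the other shifts was not tested. Groups of 2 arrays limit every call, and intensities give no count from which a depth could be set.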
